A study of Homo sapiens with 10 samples.

Results

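The Notch genes described here are the receptor genes NOTCH1, NOTCH2 and NOTCH3, the ligand genes JAG1, JAG2 and DLL1, the sugar transferase gene LFNG, the coactivator gene MAML1, and the target genes HES1 and HEY1. They were chosen by symbol, and every probe set that the platform annotation assigns to these symbols was taken. Of the 10 listed genes, 9 had a named probe set, with 1 probe set each, among 14884 named genes in all. HES1 was not analysed here. The samples were MCF10A, an immortalised, non-tumorigenic human breast epithelial line with basal features. They comprised 5 arrays of H2A.X-KO cells, in which the gene of the histone variant H2A.X was knocked out, and 5 arrays of parental (WT) cells. Both groups were grown for 48 h in the same medium with horse serum, EGF, insulin, hydrocortisone and cholera toxin, and total RNA was hybridised to Affymetrix arrays. The labels give no clone number or knockout method and do not say whether replicates were separate cultures, so the p-values rest on a spread between arrays that may be technical. The series title asks how H2A.X loss relates to epithelial-mesenchymal transition through TWIST1 and Slug. The title and labels do not mention Notch.

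Notch receptors are single-pass membrane proteins that are activated by Jagged (JAG) or Delta-like (DLL) ligands on an adjacent cell. Binding leads to cleavage by an ADAM protease and then by gamma-secretase, which frees the intracellular part of the receptor. That part enters the nucleus, joins the DNA-binding protein RBPJ and a Mastermind-like coactivator (MAML), and switches on genes such as those of the HES and HEY repressors. In the mammary gland the pathway is known for its part in luminal fate decisions. Receptor activity is set by protein cleavage, which RNA levels do not report.

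NOTCH1, NOTCH2 and JAG2 were the 3 members with the largest rises in knockout cells, so the sequence before their start sites is shown, next to a stretch of the promoter of HES1, a well-known direct target of RBPJ. The first 3 windows are the 250 bases before the RefSeq start site (GRCh38.p14), from the minus strand, at chr9:136546049-136546298 for NOTCH1, chr1:120069663-120069912 for NOTCH2 and chr14:105168777-105169026 for JAG2. Capitals there mark GGGCGG, the core of a GC box, on either strand, where neighbouring matches may overlap. The HES1 stretch lies on the plus strand at chr3:194136048-194136097. Its capitals mark TGGGAA, which is the RBPJ core GTGGGAA without its first base.
NOTCH1: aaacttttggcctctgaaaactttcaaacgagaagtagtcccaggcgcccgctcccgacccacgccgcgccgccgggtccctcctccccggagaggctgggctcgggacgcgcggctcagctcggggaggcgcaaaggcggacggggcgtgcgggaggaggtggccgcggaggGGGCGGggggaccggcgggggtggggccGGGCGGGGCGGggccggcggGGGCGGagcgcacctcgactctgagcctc
NOTCH2: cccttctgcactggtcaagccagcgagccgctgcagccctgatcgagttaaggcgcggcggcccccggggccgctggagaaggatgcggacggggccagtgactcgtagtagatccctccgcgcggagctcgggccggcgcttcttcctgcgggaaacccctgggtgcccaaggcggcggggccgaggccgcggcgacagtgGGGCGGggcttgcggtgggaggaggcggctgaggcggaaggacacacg
JAG2: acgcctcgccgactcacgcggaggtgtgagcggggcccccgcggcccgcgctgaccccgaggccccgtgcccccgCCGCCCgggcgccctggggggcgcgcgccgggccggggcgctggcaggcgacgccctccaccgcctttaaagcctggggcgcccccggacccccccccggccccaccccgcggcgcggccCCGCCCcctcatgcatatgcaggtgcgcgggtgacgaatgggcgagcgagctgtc
HES1: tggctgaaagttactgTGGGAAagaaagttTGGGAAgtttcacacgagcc
GTGGGAA was found in 1 of the 9 member windows, that of HES1, against 5.43% of 35093 windows of the same length over all RefSeq genes, searched on both strands. These 9 windows belong to 8 of the listed genes, with 2 windows for LFNG, and DLL1 and HEY1 were not searched. In HES1 the 2 TGGGAA copies begin at positions -84 and -70 from the start site, with 8 bases between them, and the upstream copy is part of the longer core. The windows of NOTCH1, NOTCH2 and JAG2 held neither form. They held 4, 1 and 2 copies of GGGCGG, a motif present in 7 of the 9 member windows and in 42.6% of all windows, and that of NOTCH3, which did not pass the test, held 5. GGGCGG was chosen after the sequences were seen. Their GC content was 76.0%, 72.8% and 81.6%, against a median of 58.0% over all windows. These matches describe the windows and were not tested against the expression values.

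Log2 signals per probe set were used as the authors deposited them, and limma calls at an adjusted p under 0.05 (Benjamini-Hochberg, over all 14884 genes) count as rises or falls. All differences are knockout minus parental. Array medians lay between 4.26 and 4.35, and precision is limited by the number of arrays, with a median standard error of 0.08 per log2 difference. Knockout replicate 1 stood apart on the second principal component (20.19, against -9.47 to -2.52 in the other knockout arrays), a component with 7.53% of the variance. The targeted gene itself was not analysed here, so the groups rest on the labels. All 4 measured basal epithelial markers of 10 listed rose, among them KRT14 (2.59) and KRT5 (0.78), and the list averaged 10.64 to 10.83 in knockout arrays and 9.57 to 9.72 in parental arrays on the log2 scale. Of 8 measured luminal markers of 9 listed 4 fell, led by EPCAM (-2.14), with averages of 5.62 to 5.77 in knockout arrays and 6.11 to 6.28 in parental arrays, and their part in the Notch results was not tested. Of 7 measured endothelial markers of 10 listed 0 passed, all were dimmer than the median gene (a mean of 5.49), and the list averaged 3.69 to 4.06 in knockout arrays and 3.71 to 3.81 in parental arrays. Of 4 measured fibroblast markers of 10 listed DCN rose (2.06, 4.16-fold) and DPT fell (-0.38), while LUM (-0.09) and THY1 (0.11) did not pass, with averages of 4.53 to 4.76 in knockout arrays and 4.07 to 4.34 in parental arrays. Of 4 leukocyte markers CSF1R was higher while CD14 and CD68 were lower past the test, with averages of 5.51 to 5.63 in knockout arrays and 5.60 to 5.74 in parental arrays.

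Among the 9 measured members, 5 rose (NOTCH1, NOTCH2, JAG2, DLL1 and LFNG), 2 fell (MAML1 and HEY1), and NOTCH3 and JAG1 did not pass. That is 77.8% called, against 34.3% of all genes tested (15.3% rose and 19.0% fell), and the median difference of the members was 0.21 against 0.00 over all genes. The groups did not overlap for 4 members, NOTCH1, NOTCH2, JAG2 and DLL1, against 28.2% of all genes. The members were listed with earlier results of these data known, so this share says nothing about a wider set. Without knockout replicate 1 the members still counted 5 rises and 2 falls. The count ran from 5 to 7 with any 1 array left out, and DLL1 and MAML1 were the members whose calls were lost.

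**Figure D1:**
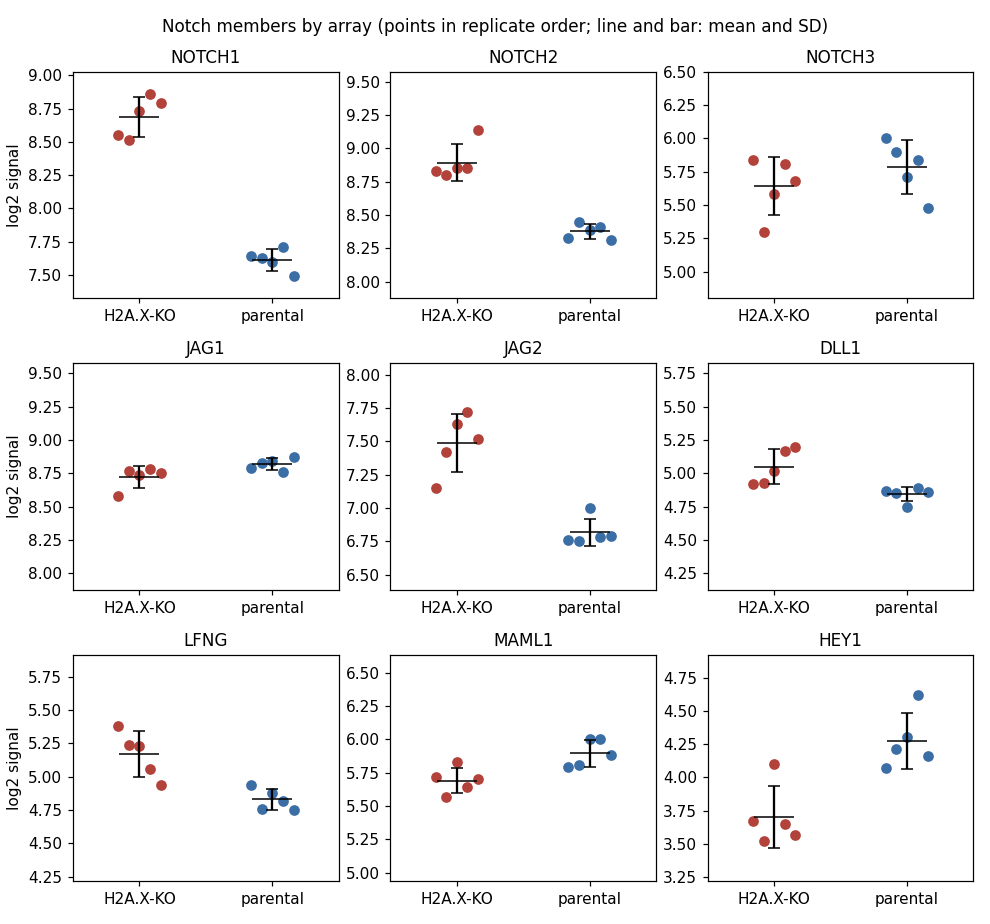
Log2 signal of the 9 measured Notch members on each array, with H2A.X-KO arrays on the left and parental arrays on the right of each panel. Points are arrays in replicate order, the line is the mean and the bar 1 SD (n = 5 each), and every panel spans the same log2 range around its own values. NOTCH1, NOTCH2 and JAG2 have all knockout points clear above the parental points, while HEY1 lies lower with 1 knockout array, at 4.10, among the parental values.

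Of the receptors, NOTCH1 and NOTCH2 were higher in knockout cells and NOTCH3 was not called. NOTCH1 (probe set 17100036), the receptor with the best known part in epidermal and T cell differentiation, gave log2 signals of 8.55, 8.51, 8.73, 8.86 and 8.79 in knockout replicates 1 to 5, against 7.64, 7.63, 7.60, 7.71 and 7.49 in parental replicates 1 to 5. All 5 knockout arrays lay above every parental array, with the closest pair 8.51 and 7.71. The means were 8.69 ± 0.15 in knockout cells and 7.61 ± 0.08 in parental cells (SD, n = 5 each). The difference was 1.07 ± 0.08 (SE), 2.10-fold higher in signal, with an adjusted p of 2.10e-07 in limma. By absolute size it was the 343rd largest difference of the 14884 genes, within the top 2.30%, and 2.81% of genes passed with at least 2-fold. NOTCH1 was the only measured member past 2-fold. In bulk RNA, more cells with the transcript and more transcript per cell cannot be told apart.

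NOTCH2 (probe set 16691668), a receptor that is widely expressed in epithelia, gave 8.83, 8.80, 8.85, 8.85 and 9.14 in knockout replicates 1 to 5, against 8.33, 8.45, 8.39, 8.41 and 8.31 in parental replicates 1 to 5. The groups did not overlap, and knockout replicate 5 was the high array. The means were 8.89 ± 0.14 in knockout cells and 8.38 ± 0.06 in parental cells (SD, n = 5 each), a difference of 0.52 ± 0.07 (SE, adjusted p = 6.46e-05, limma). NOTCH2 has partial copies in the genome, the NOTCH2NL genes, whose sequence is nearly the same as its first exons. The single one of these measured here, NOTCH2NLA (probe set 16669708), averaged 9.72 ± 0.13 in knockout cells and 9.12 ± 0.03 in parental cells (SD, n = 5 each), a difference of 0.59 ± 0.07 (adjusted p = 1.21e-05, limma). Whether the probes of either set read both genes is not given in the sources used here, so the share of each in these signals is uncertain.

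NOTCH3 (probe set 16869769) gave 5.84, 5.30, 5.58, 5.81 and 5.68 in knockout replicates 1 to 5, against 6.0, 5.90, 5.71, 5.84 and 5.48 in parental replicates 1 to 5. The groups overlapped over most of their range. The difference was -0.15 ± 0.11 (SE, adjusted p = 0.386, limma), with a 95% interval of -0.40 to 0.10, so a small fall or a smaller rise would both be allowed by these arrays.

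Ligands were split in the same manner. JAG2 (probe set 16797241), one of the Jagged ligands, gave 7.15, 7.42, 7.63, 7.72 and 7.52 in knockout replicates 1 to 5, against 6.76, 6.75, 7.00, 6.78 and 6.79 in parental replicates 1 to 5. The lowest knockout array, replicate 1, was above the highest parental array, replicate 3. The means were 7.49 ± 0.22 in knockout cells and 6.82 ± 0.10 in parental cells (SD, n = 5 each), a difference of 0.67 ± 0.10 (SE, adjusted p = 1.22e-04, limma), or 1.59-fold. JAG1 (probe set 16917183), the other Jagged ligand, gave 8.58, 8.77, 8.74, 8.78 and 8.75 in knockout replicates 1 to 5, against 8.79, 8.83, 8.84, 8.76 and 8.87 in parental replicates 1 to 5. Its difference was -0.09 ± 0.06 (SE, adjusted p = 0.243, limma), with a 95% interval of -0.21 to 0.03. Tested alone, the exact two-sided permutation test over the 10 arrays gave an unadjusted p of 0.0317 for JAG1.

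DLL1 (probe set 17025989), a Delta-like ligand, gave 4.92, 4.93, 5.02, 5.17 and 5.20 in knockout replicates 1 to 5, against 4.87, 4.85, 4.75, 4.89 and 4.86 in parental replicates 1 to 5. The groups did not overlap but lay as close as 4.92 and 4.89. Both were dimmer than the median gene, where differences may be compressed, which was not measured here. The difference was 0.21 ± 0.07 (SE, adjusted p = 0.0309, limma). This call was lost under quantile normalisation (0.18, adjusted p = 0.0752), median centring (adjusted p = 0.0788), an intensity trend (adjusted p = 0.0664) and adjustment over every probe set (adjusted p = 0.0751). It was also lost without parental replicate 2, 3 or 5 (adjusted p = 0.0573, 0.0775 and 0.0503) and without knockout replicate 4 or 5 (adjusted p = 0.0770 and 0.0749).

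**Figure D2:**
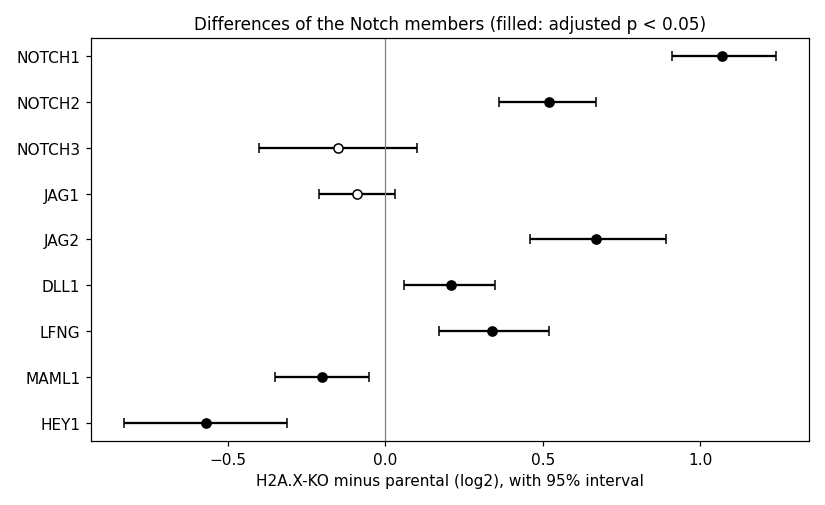
Difference in log2 signal, H2A.X-KO minus parental, for each of the 9 measured members, with its 95% interval from limma (n = 5 each). Filled points passed the test over all genes; NOTCH1 at 1.07 is the highest and HEY1 at -0.57 the lowest, and the intervals of NOTCH3 and JAG1 include 0.

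LFNG (probe set 17042997) encodes lunatic fringe, which extends O-fucose sugars on Notch receptors and thereby changes which ligands activate them. It gave 5.38, 5.24, 5.23, 5.06 and 4.94 in knockout replicates 1 to 5, against 4.94, 4.76, 4.88, 4.82 and 4.75 in parental replicates 1 to 5. In 4 of 5 knockout arrays it was above every parental array, and knockout replicate 5 was level with the highest parental array. The difference was 0.34 ± 0.08 (SE, adjusted p = 0.00484, limma), between groups that were both dimmer than the median gene. MAML1 (probe set 16993433), the coactivator that binds the receptor's intracellular part on RBPJ, averaged 5.69 ± 0.10 in knockout cells and 5.89 ± 0.10 in parental cells (SD, n = 5 each). Its arrays ran 5.72, 5.57, 5.83, 5.64 and 5.70 in knockout cells, against 5.79, 5.81, 6.0, 6.0 and 5.88 in parental cells. The groups overlapped in part, with knockout replicate 3 above parental replicates 1 and 2. The difference was -0.20 ± 0.07 (SE, adjusted p = 0.0350, limma). It no longer passed without parental replicate 3, 4 or 5 (adjusted p = 0.0894, 0.0862 and 0.0559), without knockout replicate 2, 4 or 5 (adjusted p = 0.0889, 0.0743 and 0.0561) or over every probe set (adjusted p = 0.0832).

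HEY1 (probe set 17078452), a transcriptional repressor gene and the measured direct target among the members, was lower in knockout cells. It gave 3.67, 3.52, 4.10, 3.65 and 3.57 in knockout replicates 1 to 5, against 4.07, 4.21, 4.30, 4.62 and 4.16 in parental replicates 1 to 5. Knockout replicate 3 lay just above the lowest parental array, and the other 4 knockout arrays were below all parental arrays. The means were 3.70 ± 0.23 in knockout cells and 4.27 ± 0.21 in parental cells (SD, n = 5 each), a difference of -0.57 ± 0.12 (SE, adjusted p = 0.00224, limma), or -0.67 without knockout replicate 3. All 10 values were dimmer than the median gene, which limits how far the size of this fall can be read.

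Members of the same role differed in how far their signals moved. Because 2 probe sets cannot be compared by level, the difference in log2 signal between 2 members was taken within each array and compared between groups, in 6 pairs, with exact two-sided permutation tests whose smallest possible p is 0.00794. NOTCH1 rose more than NOTCH2 by 0.56 ± 0.07 (SE) and more than NOTCH3 by 1.22 ± 0.11, and NOTCH2 rose relative to NOTCH3 by 0.66 ± 0.13. JAG1 moved against JAG2 by -0.76 ± 0.08 and against DLL1 by -0.30 ± 0.06, and JAG2 against DLL1 by 0.47 ± 0.10. The exact p was 0.00794 in the first 5 of these pairs (0.00952 after adjustment over the 6 pairs), the smallest the design can give, and 0.0159 for JAG2 against DLL1, also after adjustment. In each of the first 5 pairs all knockout arrays lay on 1 side of all parental arrays. For JAG2 against DLL1, knockout replicate 1 (0.25) fell below parental replicate 3 (0.27). The pairs share members, so they are not separate pieces of evidence, and they were chosen with the earlier values known. Taking the difference within an array removes the level of each probe set, but not an unequal response of 2 probe sets to the same change in RNA. DLL1 was dim, where differences may be compressed, and the NOTCH2 signal may include its partial copies. The sizes therefore describe signals and not amounts of RNA.

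**Figure D3:**
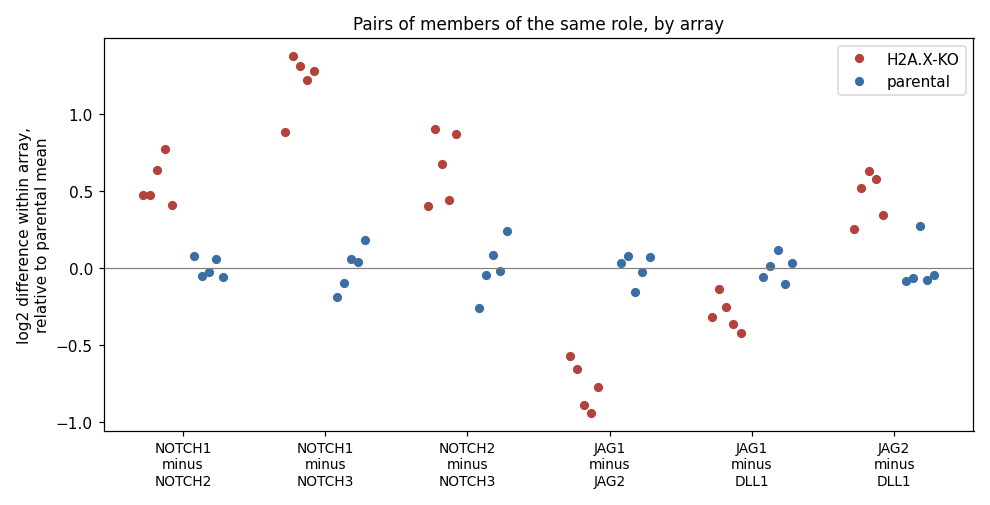
Difference in log2 signal between 2 members of the same role within each array, set relative to the parental mean of that pair, for 6 pairs. Each point is an array (5 H2A.X-KO, 5 parental); the knockout points of NOTCH1 minus NOTCH3 sit between 0.88 and 1.38 and those of JAG1 minus JAG2 between -0.94 and -0.57, apart from the parental points around 0.

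The rest of the pathway was described with 80 further genes sorted by role, of which 65 were measured. Of these, 15 rose, 15 fell and 35 did not pass, so 46.2% were called against 34.3% of all genes, with a median difference of 0.01 against 0.00. Their groups did not overlap in 27 genes (41.5%, against 28.2% of all genes). Rises and falls were equal in number over the list.

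Ligand-like partners held the largest rises. Of 9 measured, 5 rose and 1, the ligand-like gene DLL3 (-0.35), fell, which is 66.7% called against 34.3% of all genes. In 6 of the 9 the mean lay under that of the median gene. MFAP5, a microfibril protein reported to bind Jagged, gave 6.07, 5.80, 5.86, 6.18 and 5.85 in knockout replicates 1 to 5, against 4.87, 4.30, 4.31, 4.41 and 4.42 in parental replicates 1 to 5. The groups were far apart, with a difference of 1.49 ± 0.11 (SE, adjusted p = 3.52e-07, limma). MFAP5 is also used as a fibroblast marker. Of the 4 measured markers on the fibroblast list, DCN rose by 2.06, DPT fell (-0.38), and LUM (-0.09) and THY1 (0.11) did not pass. A link between MFAP5 and these markers was not tested. DLK2, a transmembrane protein with Delta-like EGF repeats, averaged 8.67 ± 0.14 in knockout cells and 7.31 ± 0.07 in parental cells (SD, n = 5 each), a difference of 1.36 (adjusted p = 1.68e-08, limma). CCN3, a matrix-associated protein reported to bind NOTCH1, rose by 0.69, DNER, a membrane protein with EGF repeats, by 0.68, and the adhesion protein gene CNTN1 by 0.29. CNTN1 was dim, at 2.81 ± 0.09 in knockout cells and 2.52 ± 0.06 in parental cells (SD, n = 5 each), as was DLL3, at 4.49 ± 0.13 in knockout cells and 4.83 ± 0.14 in parental cells. DLL4, at 4.91 ± 0.11 in knockout cells and 4.80 ± 0.13 in parental cells, and DLK1 and MFAP2 did not pass. NOTCH4, the receptor best known from endothelium, was at 5.07 ± 0.25 in knockout cells and 4.99 ± 0.12 in parental cells (SD, n = 5 each). Its difference was 0.08 (adjusted p = 0.637, limma), and without knockout replicate 1 it was -0.03.

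Of 7 measured genes for sugar and protein modification of the receptor 2 rose and 2 fell (57.1% called, against 34.3% of all genes). The sugar transferase genes POFUT1, which adds the O-fucose that LFNG extends, and POGLUT1, which adds O-glucose, rose by 0.37 and 0.33 (adjusted p = 8.25e-04 and 0.00875, limma). FURIN, the protease that cuts the receptor on its way to the surface, fell by 0.36 and the xylose transferase gene GXYLT1 fell by 0.25, while the other fringe genes MFNG (0.04) and RFNG (0.02) and XXYLT1 (0.03) did not pass. Of the 7 measured cleavage genes 2 fell and 0 rose, so 28.6% were called, near the 34.3% of all genes (19.0% fell). PSENEN, a subunit of gamma-secretase, gave 9.61, 9.94, 9.90, 9.89 and 9.76 in knockout replicates 1 to 5, against 10.69, 10.65, 10.61, 10.67 and 10.54 in parental replicates 1 to 5. The knockout arrays were all lower, by 0.81 ± 0.07 on average (SE, adjusted p = 1.16e-06, limma). ADAM17 averaged 8.43 ± 0.06 in knockout cells and 8.86 ± 0.08 in parental cells (adjusted p = 5.13e-05, limma). ADAM10 (-0.12) and the gamma-secretase subunit genes NCSTN (-0.04), APH1A (0.10), APH1B (-0.15) and PSEN2 (-0.07) did not pass.

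Of 14 trafficking and turnover genes 5 fell and 2 rose (50.0% called, against 34.3% of all genes). AAK1, an endocytic kinase, fell by 0.82 (adjusted p = 5.79e-08, limma), the Deltex family gene DTX3L fell by 0.58, and NUMB, an inhibitor of Notch, fell by 0.41. The Deltex ubiquitin ligase genes DTX4 and DTX2 rose by 0.43 and 0.40. MIB1, a ubiquitin ligase of the ligands, and EPN1, an endocytic adaptor, had the smallest falls, of 0.20 and of 0.22 (adjusted p = 0.0197 and 0.0255, limma). The call of EPN1 was lost without any of parental replicates 2, 4 or 5 or knockout replicates 1, 2 or 3 (adjusted p = 0.0644, 0.0610, 0.0508, 0.0541, 0.0509 and 0.0639) and over every probe set (adjusted p = 0.0640). That of MIB1 was lost without parental replicate 2 (adjusted p = 0.0557), without parental replicate 4, where the adjusted p lay just past the threshold, and over every probe set (adjusted p = 0.0519).

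**Figure D4:**
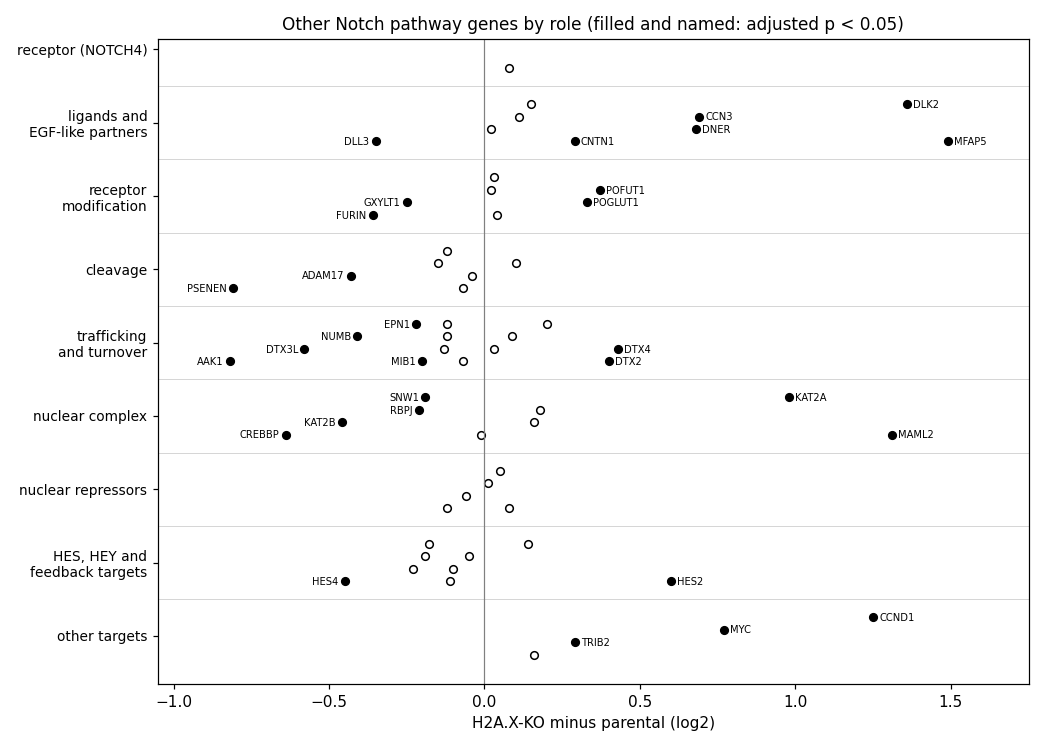
Difference in log2 signal, H2A.X-KO minus parental, for 65 further Notch pathway genes in rows by role. Filled, named points passed the test over all genes and open points did not; the ligand-like partners reach the highest value, 1.49 for MFAP5 and the lowest is -0.82, for AAK1. Vertical position within a row carries no value.

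Of 9 measured genes of the nuclear complex 2 rose and 4 fell (66.7% called, against 34.3% of all genes). RBPJ, the DNA-binding partner of Notch, gave 6.57, 6.60, 6.61, 6.48 and 6.53 in knockout replicates 1 to 5, against 6.71, 6.75, 6.77, 6.76 and 6.86 in parental replicates 1 to 5. The groups did not overlap, and the difference was -0.21 ± 0.05 (SE, adjusted p = 0.00619, limma). MAML2, a second Mastermind-like coactivator, averaged 7.21 ± 0.05 in knockout cells and 5.90 ± 0.18 in parental cells (SD, n = 5 each), a difference of 1.31 ± 0.08 (adjusted p = 6.18e-08, limma). Its other, dimmer probe set (16730366) ran from 3.28 to 3.84 in knockout cells and from 3.07 to 3.55 in parental cells, a difference of 0.17 ± 0.13 (adjusted p = 0.366 over all named probe sets, limma). The mean of both probe sets gave 0.74 (adjusted p = 1.93e-05, limma). MAML3 was at 6.16 ± 0.06 in knockout cells and 5.98 ± 0.15 in parental cells (adjusted p = 0.0727, limma). It passed without parental replicate 2 (adjusted p = 0.0419) and without dim genes (adjusted p = 0.0321). The acetyltransferase genes diverged, with KAT2A higher by 0.98 (adjusted p = 1.03e-08, limma) and CREBBP (-0.64) and KAT2B (-0.46) lower. A further acetyltransferase gene, EP300, did not pass (0.16, adjusted p = 0.122, limma). SNW1, a further RBPJ partner, was lower by a smaller amount (-0.19, adjusted p = 0.0232, limma). SNW1 lost its call without parental replicate 4 or 5 or knockout replicate 4 or 5 (adjusted p = 0.0592, 0.0512, 0.0564 and 0.0504), under quantile normalisation (adjusted p = 0.0690) and over every probe set (adjusted p = 0.0593). All 5 measured repressor genes (KDM5A, CTBP1, CTBP2, HDAC1 and HDAC2) stayed within -0.12 to 0.08 and did not pass.

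The HES and HEY family and the feedback gene NRARP are the usual readout genes of the pathway. Of 9 measured beside HEY1, HES2 rose and HES4 fell, and 7 did not pass, with a median of -0.11. That is 22.2% called, beside 34.3% of all genes, a gap too small to read in 9 genes. The shares of the other role lists, above or below that of all genes, also rest on few genes. None of them was tested. HES2 averaged 5.08 ± 0.23 in knockout cells and 4.48 ± 0.08 in parental cells, and HES4 averaged 6.30 ± 0.12 in knockout cells and 6.76 ± 0.17 in parental cells (SD, n = 5 each). The differences were 0.60 (adjusted p = 2.91e-04, limma) and -0.45 (adjusted p = 0.00117, limma). NRARP, whose product limits Notch activity, gave 4.77, 4.56, 4.16, 4.39 and 4.38 in knockout replicates 1 to 5, against 4.70, 4.65, 4.55, 4.62 and 4.68 in parental replicates 1 to 5. Knockout replicate 1 was the highest of all 10 arrays and the other 4 spread downward, for a difference of -0.19 ± 0.10 (SE, adjusted p = 0.167, limma). Without knockout replicate 1 it was -0.27 (adjusted p = 0.0183, limma). HES3, HES5, HES6, HES7, HEY2 and HEYL ran from -0.23 (HES5) to 0.14 (HES3). Of these 9 genes, 5 were dimmer than the median gene, among them HES2, which was dim in both groups.

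Of 4 measured genes that are reported Notch targets but answer to many other pathways, 3 rose (75.0% called, against 34.3% of all genes). CCND1, which encodes cyclin D1, averaged 9.90 ± 0.03 in knockout cells and 8.65 ± 0.08 in parental cells (SD, n = 5 each), a difference of 1.25 (adjusted p = 3.31e-09, limma). MYC averaged 10.50 ± 0.04 in knockout cells and 9.73 ± 0.08 in parental cells, a difference of 0.77 (adjusted p = 2.44e-07, limma), and TRIB2 rose by 0.29 (0.03 by its other probe set, and 0.16 with an adjusted p of 0.0969 for the mean of both, limma). SOX9 (0.16) did not pass.

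The members lie on 9 different chromosomes, and the median differences of their neighbours stayed between -0.09 (MAML1) and 0.12 (JAG1). Among the 20 tested genes around NOTCH1 (10 on each side in chromosome order) 2 rose and 3 fell, with a median difference of 0.09, against 1.07 for NOTCH1. Around NOTCH2 1 rose and 5 fell (median -0.02), around JAG2 3 rose and 1 fell (median 0.02), and around HEY1 5 rose and 5 fell (median 0.00). JAG1, which was not called, had 8 rises and 2 falls among its 20 neighbours (median 0.12). MAML2 on chromosome 11 and KAT2A on chromosome 17 each had 8 rises and 1 fall among 20 neighbours, with medians of 0.06 and 0.07. Over all genes 15.3% rose and 19.0% fell. Single neighbours moved further than these medians, from -0.26 to 2.6 around MAML2, -0.83 to 1.86 around KAT2A and -0.58 to 1.28 around JAG1. Whether position had a part in the differences was not tested.

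Across all genes, the 3 whose values relative to the parental mean were closest to those of NOTCH1 over the 10 arrays were HSPG2, DHCR7 and GAS6, with root mean square gaps of 0.084, 0.090 and 0.093 on the log2 scale. HSPG2, the gene of the basement membrane proteoglycan perlecan, ran from 7.45 to 7.73 in knockout arrays and from 6.45 to 6.63 in parental arrays, a difference of 1.05. DHCR7, an enzyme of cholesterol synthesis, differed by 1.00, and GAS6, a secreted ligand of TAM receptors, by 1.11. This likeness is a description of 10 arrays in 2 groups and carries no test.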

How the data were processed

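Gene expression was measured on Affymetrix arrays in 10 samples of MCF10A, 5 H2A.X-KO and 5 parental, grouped by the labels. What the authors deposited is a log2 signal for each probe set and array, already summarised and normalised. The tools named in the submitters' processing notes are Affymetrix Expression Console and Partek 6.6, with order and summarisation method not given in the sources used here. Of 53617 probe sets, 16098 had 1 gene symbol in the platform annotation, 0 several and 37519 none, and all named ones matched RefSeq (GRCh38.p14) by Entrez identifier. The probe set with the highest mean stood for each of 14884 genes. No 2 arrays held identical values.

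Differences came from limma 3.58.1 (lmFit, eBayes; R 4.3.3), with no covariate and no filter, and Benjamini-Hochberg adjustment over all genes. The procedure was tested on simulated data of 14884 genes, of which 200 were changed. It recovered 79% of log2 changes of 0.5 and 97% of log2 changes of 1, and called 14 unchanged genes. In the real data 5108 genes were called, so these shares may not carry over. Exact permutation tests were two-sided (scipy 1.17.1, Python 3.11.15). The members and lists were chosen with earlier results of these data known. Named were all members; RBPJ, NOTCH4, MAML2, MAML3 and NRARP; up to 4 genes per role that passed, by absolute difference; leading cell type markers; and the 3 genes most like the member with the largest difference. CNTN1, DLL3, DTX2, EPN1, MIB1, SNW1, NOTCH2NLA and the other pathway genes given as not passing were named after their values were seen. Alternatives were other normalisations, filters, variance models, probe set rules, a replicate block and each array left out. A pair of HES1 and HEY1 was planned but not run because HES1 was not analysed here.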

Additional observations from a re-analysis of the deposited data

Results flagged for a closer look

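A single array far from the other 4 of its group, by Dixon's test at the 95% level, was found in 7 of 84 groups of 5 arrays examined (42 genes in 2 genotypes); chance gives about 1 in 20. NOTCH2 was high in knockout replicate 5, at 9.14 against 8.80 to 8.85 in the other knockout arrays. JAG1 was low in knockout replicate 1, at 8.58 against 8.74 to 8.78. HEY1 was high in knockout replicate 3, at 4.10 against 3.52 to 3.67. NOTCH4 was high in knockout replicate 1, at 5.50 against 4.91 to 5.02, and MAML3 in knockout replicate 3, at 6.26 against 6.12 to 6.15. Among parental arrays, JAG2 was high in replicate 3, at 7.00 against 6.75 to 6.79, and MFAP5 in replicate 1, at 4.87 against 4.30 to 4.42. The calls of NOTCH2, JAG2, HEY1 and MFAP5 were kept without these arrays.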

How the results depend on the processing

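NOTCH1, NOTCH2 and JAG2 kept their direction and call in all 20 alternatives run, with differences of 1.03 to 1.12, 0.45 to 0.56 and 0.61 to 0.76. LFNG (0.29 to 0.40) and HEY1 (-0.67 to -0.48) did so in the 19 in which they were tested, and NOTCH3 stayed below the threshold in all 20. DLL1 kept its call in 10 of 19 and MAML1 in 13 of 20. Without dim genes 4 of 6 tested members were called, because DLL1, LFNG and HEY1 were not tested there. Over every probe set, named or not, 9112 were called of 53617. With 1 array left out, 5 to 7 members, 27 to 33 pathway genes and 4705 to 5128 of all genes were called, and all 6 pairs kept their call. NOTCH4, not called, took the opposite sign (-0.03) without knockout replicate 1, in a range of -0.03 to 0.12 with 1 array left out. With the replicate block 7 members, 29 pathway genes and 4972 of all genes were called. MIB1 and SNW1 no longer passed there (adjusted p = 0.0571 and 0.0666, limma), while HES7 passed (adjusted p = 0.0428, limma). Deviations of same-numbered arrays correlated at -0.01 to 0.20, and 3 of 10 arrays correlated best with their own number. These values give little sign of pairing by number but cannot exclude it, and the labels do not say. DLL1, LFNG and HEY1, 3 of the 9 members, averaged under the median gene, where differences may be compressed.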
